A study of Homo sapiens with 12 samples.

Results

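The data described here are from KURAMOCHI, a human ovarian cancer cell line, given the covalent kinase inhibitor THZ1 at 250 nM for 6 hr or the vehicle DMSO for the same time. The comparison takes 4 of the 12 libraries of the study, 2 per group, and every row of the KURAMOCHI table that names a gene, which is 23621 of 23713 rows after the 92 rows of ERCC spike-in RNAs are set aside. A gene was taken as active when its level exceeded 1 FPKM (fragments per kilobase of transcript, scaled to a common library size) in at least 1 of the 12 libraries. That left 14251 genes, of which 12859 passed in the 4 libraries compared and 1392 passed only elsewhere in the study. The cells carried no transduced construct (genotype label untransduced control) and grew in RPMI with 10% fetal bovine serum. PolyA RNA was prepared with the TruSeq Stranded mRNA kit and read as single-end 75 bp reads on a NextSeq 500. RNA amounts were normalized to the number of cells before ERCC mix 1 was added, so the deposited FPKM are on a per-cell scale set by the spike-ins. The study treated this line and COV362, another ovarian cancer line, to measure how much transcription changes under THZ1, and a KURAMOCHI group at 50 nM serves here as the lower dose. KURAMOCHI is 1 line, and its 2 libraries per group are described by the study as biological duplicates.

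CDK7 is the kinase of the general transcription factor TFIIH, and with cyclin H and MNAT1 it phosphorylates the tail of RNA polymerase II as the enzyme leaves a promoter. CDK12 and CDK13, which pair with cyclin K, phosphorylate the same tail during elongation, and CDK12 is known for its part in the expression of long DNA repair genes. THZ1 binds covalently to cysteines of CDK7, CDK12 and CDK13, and a transcript's level after hours of treatment reflects both how much is still being made and how fast the existing RNA decays.

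The label of the cells was compared with marker genes. Of 9 markers of serous ovarian carcinoma, 8 were above 1 FPKM in DMSO, and the most abundant was WFDC2, the secreted protein HE4. MUC16, the gene for the CA125 antigen, was the exception, at 0.172 and 0.159 FPKM in the DMSO libraries, near the lowest values in the table. Of 6 epithelial markers, 5 were above 1 FPKM, with KRT8 the most abundant and CDH1 low at 0.559 and 0.377 FPKM. Summed over each list, the serous markers reached 983 and 910 FPKM in the DMSO libraries against 489 and 499 at 250 nM, and the epithelial markers 4739 and 4508 against 2371 and 2251. Markers of other cell types were scarce. The 7 fibroblast markers summed to 12.8 and 10.9 FPKM in DMSO and 6.64 and 6.58 at 250 nM, with 2 above 1 FPKM in DMSO and COL3A1 the most abundant. The 6 leukocyte markers summed to 3.86 and 2.79 against 2.55 and 2.52, with CD68 the most abundant, PTPRC at 0.299 and 0.171 FPKM in DMSO and CD3E at the table's lowest common value, 0.118 and 0.119. Of the 4 endothelial markers 3 were above 1 FPKM, led by CDH5, and their sums were 13.4 and 11.7 FPKM in DMSO and 7.21 and 7.43 at 250 nM, while PECAM1 stood at 0.140 and 0.172. Called lower were 1 of 3 active fibroblast markers, none of 2 active leukocyte markers and 1 of 3 active endothelial markers, and after rescaling none of these 8 was called lower and 1, the endothelial marker VWF, was called higher (0.91, adjusted p 0.000507).

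The fall at 250 nM reached most of the transcriptome. The median FPKM of active genes was 12.8 and 10.9 in the DMSO libraries, 7.55 and 6.90 at 50 nM and 2.84 and 3.13 at 250 nM. Both high-dose libraries lay below both low-dose libraries, and these lay below both DMSO libraries. In DMSO 12652 and 12466 genes exceeded 1 FPKM, against 9736 and 10029 at 250 nM, and 7969 and 7418 exceeded 10 FPKM against 3870 and 3935. The percentage of a gene's mean DMSO level that was present at 250 nM, here called its retained level, had a median of 36.3% over active genes, and 33.1% to 39.6% when each 250 nM library was set against each DMSO library, which makes 4 pairs. In a bulk library fewer cells of a kind and less RNA per cell cannot be told apart. The read depth of the libraries is unknown, since the deposited values are not counts.

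The FPKM had been normalized to the spike-ins, which sets their level close to that of DMSO, so the spread among them is what can be read. Over 53 ERCC RNAs the median log2 level relative to the DMSO mean was 0.0138 and 0.0277 in the 250 nM libraries, with SDs of 0.304 and 0.260 across ERCC RNAs, and 0.0206 and 0.0451 at 50 nM. The 16 ERCC RNAs with the lowest levels stood at 0.0828 and 0.0688 in the 250 nM libraries, the 24 in the middle at 0.0353 and 0.0592, and the 13 most abundant at -0.032 and -0.0414. These medians at 250 nM were all under 0.1 in size, while at 50 nM the 16 lowest ERCC RNAs stood at 0.259 and 0.116. In the same libraries the median level of active genes went from 12.8 and 10.9 FPKM in DMSO to 2.84 and 3.13 at 250 nM.

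**Figure D1:**
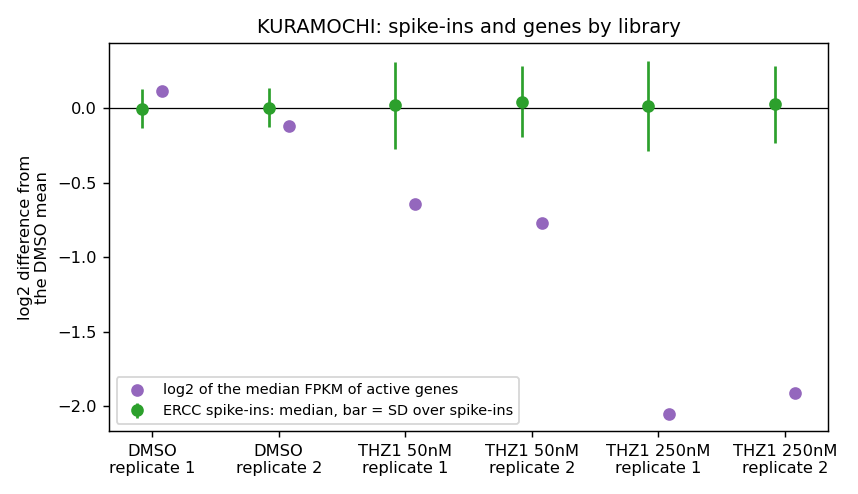
Log2 level relative to the mean of the DMSO libraries, for the median ERCC RNA with its SD across 53 ERCC RNAs and for the median FPKM of active genes, in each of the 6 KURAMOCHI libraries. The ERCC points lie near 0 in all 6 libraries, while the median of active genes steps down from DMSO to 50 nM and again to 250 nM.

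Changes in single genes were tested with limma on log2(FPKM + 1), with Benjamini-Hochberg adjustment across 14251 genes. Calls of lower or higher needed an adjusted p under 0.001 together with a log2 difference beyond 0.5, and log2 differences below are 250 nM minus DMSO unless another pair is named. Whether duplicates came from separate cultures is not said in the sources used here, so these p-values measure only the spread between samples, which may be technical. Groups of 2 libraries allow an exact permutation test, taken two-sided, no p smaller than 0.333 for any gene. The test called 9774 genes lower, 68.6% of active genes, and 7 higher, 0.0491%. Another 4470 genes were not called, and 1721 of these had a mean under 1 FPKM over the 4 libraries. Without the first 250 nM library 6085 genes were called lower and 23 higher, and without the second 6319 and 13, where the lone library left in its group is assumed to vary like the other groups. Apart from any test, both 250 nM libraries lay below both DMSO libraries in 13660 genes (95.8%), above both in 59 (0.414%), and overlapped them in 532. These counts include 1392 genes above 1 FPKM only elsewhere in the study. The table's lowest common value itself fell, from 0.118 and 0.119 FPKM in DMSO to 0.0783 and 0.0822 at 250 nM. Rows at that value therefore lie below DMSO by construction. The lower and upper quartiles of the log2 differences were -1.71 and -0.65, and the lowest and highest 10% of genes lay beyond -2.38 and -0.28.

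Gene groups are set against this general fall in what follows. Counts of members called lower stand beside the 68.6% of all active genes called lower. That share was 78.6% for genes of 5 to 20 FPKM in DMSO and 90.4% for those of 20 to 100 FPKM. The median log2 difference of all active genes was -1.11, and -1.21 to -1.01 over the 4 pairs of libraries. When each library was rescaled by the median of its gene ratios, a step that sets the typical gene to no change, the median became 0.01. On that relative scale 2708 of the 14251 active genes were called lower and 1678 higher. Counts of list members after rescaling stand beside these shares. Of the genes called lower on the spike-in scale 827 were called higher, and all 7 genes called higher on the spike-in scale were called higher again. Values "after rescaling" below are on that scale and say only how a gene moved relative to the typical gene. Spread around the general fall was wide: of 9692 genes with a DMSO mean of at least 5 FPKM, 954 retained under 10% of it and 329 retained over 75%, limits that were chosen after the data were seen.

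**Figure D2:**
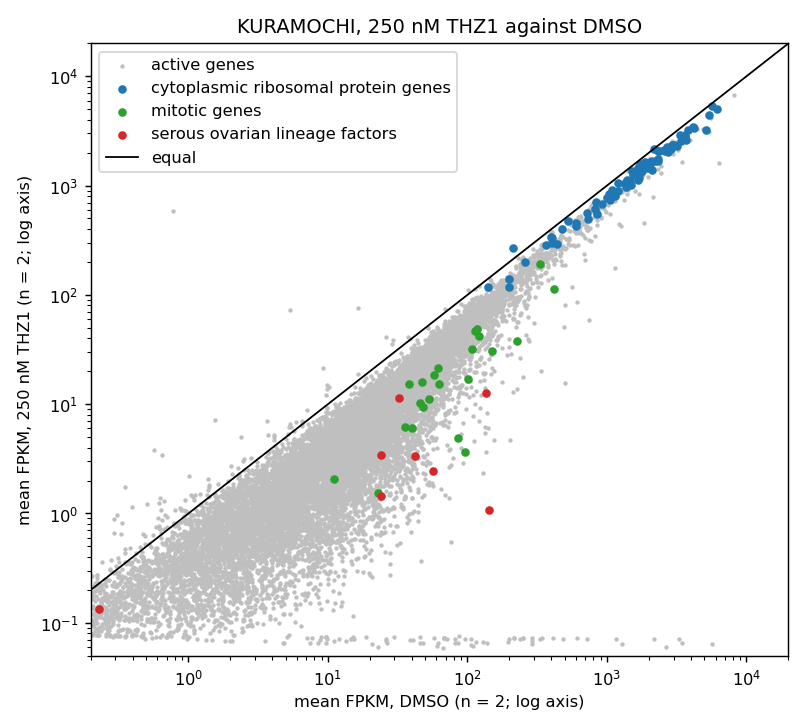
Mean FPKM of each active gene in DMSO, on the horizontal log axis, against its mean FPKM at 250 nM THZ1, on the vertical log axis, with ribosomal protein genes in blue, mitotic genes in green, serous lineage factors in red and the line of equal levels drawn. On the spike-in scale most genes lie below that line and the ribosomal protein genes lie close to it, while after rescaling 59 of the 78 ribosomal protein genes were called higher; the low line of points at the bottom holds genes at the table's lowest values, and genes with a DMSO mean under about 0.2 or over 20000 FPKM are not drawn.

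Lineage factors of serous ovarian cancer held the largest loss among protein-coding genes with a DMSO mean of at least 5 FPKM. SOX17, a transcription factor of the Muellerian lineage, stood at 139 and 146 FPKM in the DMSO libraries, 30.3 and 33.9 at 50 nM and 1.06 and 1.10 at 250 nM. Its 3 groups did not overlap and stepped down with dose, and the log2 difference at 250 nM was -6.11 (SE 0.0872, adjusted p 4.79e-06) and -5.17 after rescaling. PAX8, the paired-box factor used to identify these tumours, went from 140 and 132 FPKM through 42.5 and 41.0 to 11.5 and 13.8, a log2 difference of -3.33, and WT1, a zinc finger factor used in the same way, from 60.1 and 53.4 FPKM to 2.14 and 2.75, a difference of -4.07. The DMSO and 250 nM libraries of WT1 and of PAX8 were well apart. EMX2, a homeobox factor of the urogenital tract, fell from 44.4 and 39.3 FPKM to 3.001 and 3.66, MEIS1, a TALE homeobox factor, from 25.03 and 22.6 to 1.34 and 1.56, and MECOM, the gene for EVI1, from 25.4 and 22.9 to 3.28 and 3.58. Of the 8 listed factors 7 were called lower, the exception being ESR1 (estrogen receptor alpha) near the lowest values at 0.201 and 0.254 FPKM in DMSO. The list's median retained level was 8.62% (7.49 to 9.86 over the pairs of libraries), against 36.3% for all active genes, and after rescaling its median was -1.999 with 6 of 8 lower and 0 higher.

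Ovarian antigens, keratins and cadherins were retained more in the median than the lineage factors in the same libraries. WFDC2 had 502 and 446 FPKM in DMSO, 512 and 548 at 50 nM and 417 and 421 at 250 nM, so the high-dose libraries were just under the DMSO libraries and the difference of -0.18 was not called (adjusted p 0.073), though it was 1.29 and called higher after rescaling. MSLN, the surface antigen mesothelin, was not called either, at 69.0 and 68.3 FPKM against 49.4 and 52.2. KRT19, a keratin of simple epithelia, fell from 47.9 and 47.3 FPKM to 6.86 and 6.67 (-2.65, adjusted p 6.52e-06), and SLC34A2, the phosphate transporter NaPi2b, from 141 and 122 to 22.9 and 24.4. The much more abundant keratin partners KRT8 and KRT18 retained 62.0% and 37.0%, below DMSO on the spike-in scale but at 0.78 and 0.04 after rescaling, not called. In all 8 of 15 such genes were called lower, the median retained level was 52.2% (48.5 to 56.2), and after rescaling 2 were lower and 3 higher with a median of 0.32.

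**Figure D3:**
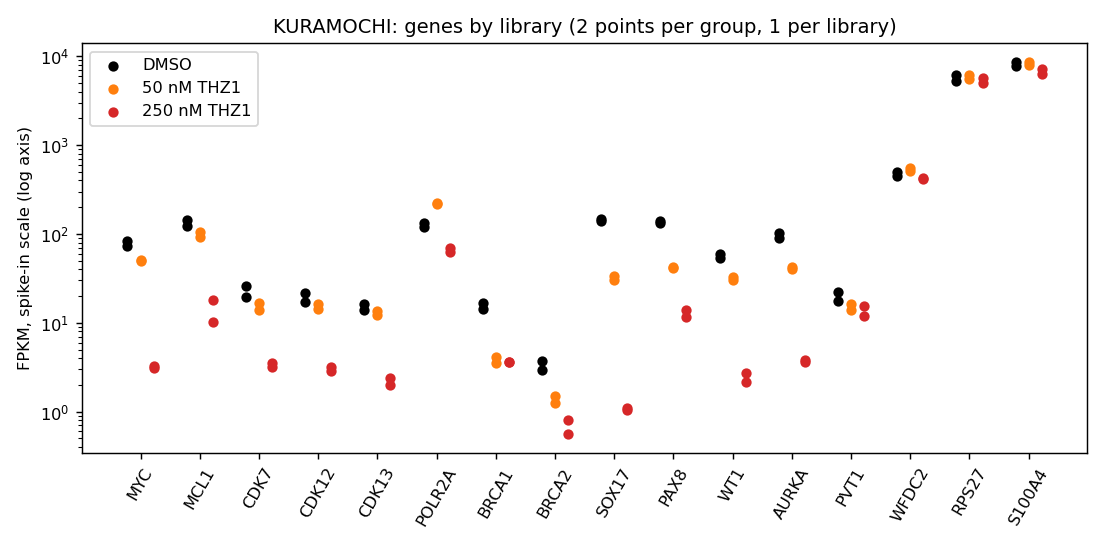
FPKM on a log axis in each KURAMOCHI library given DMSO, 50 nM or 250 nM THZ1, 1 point per library, for 16 genes from the target kinases, lineage factors, DNA repair, mitosis and abundant genes. SOX17, MYC and AURKA drop well below their DMSO levels at 250 nM, POLR2A is above DMSO at 50 nM and below it at 250 nM on the spike-in scale (above it after rescaling), and RPS27 overlaps between DMSO and 250 nM.

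The targets of the compound were themselves among the transcripts that fell. CDK7 lies at chr5:68530622-68573257 on the plus strand (hg19 coordinates here and for the genes that follow) and had 26.3 and 19.5 FPKM in DMSO, 16.8 and 13.98 at 50 nM and 3.49 and 3.22 at 250 nM. Its high-dose libraries were far below the rest, with a log2 difference of -2.44 (SE 0.169, adjusted p 3.38e-05) from DMSO and -1.91 (adjusted p 0.000208) from 50 nM. CDK12, at chr17:37617739-37723812 on the plus strand, had 21.7 and 17.2 FPKM in DMSO, 16.3 and 14.1 at 50 nM and 2.84 and 3.17 at 250 nM (-2.34, SE 0.147, adjusted p 2.46e-05). CDK13, at chr7:39989720-40139179 on the plus strand, had 16.4 and 13.9 FPKM in DMSO, 13.5 and 12.2 at 50 nM and 2.01 and 2.38 at 250 nM (-2.33, SE 0.136, adjusted p 1.97e-05). In each of the 3 kinases the low-dose libraries lay below DMSO but nearer to it than to the high-dose libraries, and after rescaling the 250 nM differences were still called lower, at -1.20, -1.12 and -1.19.

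Their partners were less uniform. CCNH, the gene for cyclin H and the partner of CDK7, had 29.3 and 24.1 FPKM in DMSO, 37.2 and 32.6 at 50 nM and 18.1 and 16.1 at 250 nM, so that the low dose was the highest of the 3 groups. Its difference from DMSO of -0.61 was not called (adjusted p 0.00383), though a block for replicate number made it a lower call (adjusted p 0.000337), and after rescaling it was 0.81 and called higher. MNAT1, which assembles the CDK7 complex, fell from 29.5 and 25.9 FPKM to 13.9 and 12.5 but was 0.39 after rescaling, not called, and CCNK, the cyclin of CDK12 and CDK13, from 33.4 and 27.8 to 9.15 and 9.69. P-TEFb, the kinase that releases paused polymerase, was reduced in its kinase CDK9 from 32.2 and 30.9 FPKM to 5.42 and 6.29 (-2.25, and -0.92 after rescaling), and its cyclins CCNT1 and CCNT2 fell by 1.90 and 1.37 on the log2 scale. CDK8, a kinase of the Mediator complex, fell from 19.1 and 14.5 to 3.75 and 4.58 FPKM. Of these 12 kinases and cyclins 11 were called lower, the median retained level was 27.8% (21.7 to 33.2), and after rescaling 4 were lower and 1 higher with a median of -0.35.

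RNA polymerase II subunits retained more in the median than the list of kinases and cyclins, with members that overlapped and no test of the difference. POLR2A, the largest subunit, whose tail carries the phosphorylated repeats, lies at chr17:7387685-7417933 on the plus strand and had 133 and 118 FPKM in DMSO, 223 and 214 at 50 nM and 61.8 and 70.2 at 250 nM. The low-dose libraries were the highest and the high-dose libraries the lowest, without overlap. At 50 nM the log2 difference from DMSO was 0.80 (adjusted p 0.000993), at 250 nM it was -0.92 (adjusted p 0.000117), and between the doses it was -1.72 (adjusted p 5.67e-05), while after rescaling the 250 nM difference turned to 0.54 and was called higher. POLR2D, which with POLR2G forms the stalk of the enzyme, was the subunit with the largest fall, from 42.3 and 37.0 FPKM to 7.80 and 7.56 (-2.22). POLR2K, a small subunit shared by all 3 nuclear polymerases, had 171 and 147 FPKM in DMSO and 109 and 99.4 at 250 nM, and its -0.60 was not called (adjusted p 0.00144) and became 0.86, called higher, after rescaling, while with replicate number as a block it was called lower (adjusted p 6.44e-05). Over the 12 subunits 11 were called lower with a median retained level of 55.4% (52.3 to 57.4), and relative to the typical gene 4 were higher and 1 lower.

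Factors that hold or release the polymerase varied widely, also within a complex. MEPCE, the enzyme that caps 7SK RNA in the complex that inhibits P-TEFb, had 68.2 and 61.8 FPKM in DMSO, 16.9 and 14.3 at 50 nM and 2.17 and 1.20 at 250 nM, a steep step at each dose, and fell by 4.64 on the log2 scale (SE 0.191, adjusted p 9.04e-06). HEXIM1, the protein of that complex that binds P-TEFb, went from 26.5 and 25.1 FPKM to 1.96 and 2.65. The 4 genes of the 7SK inhibitory complex were all called lower with a median retained level of 8.13%, LARP7 being the best retained of them at 38.6%, and LARP7 turned to 0.10 after rescaling. Among pausing factors, NELFA fell from 15.98 and 15.96 FPKM to 1.31 and 1.80, whereas NELFCD, another subunit of the same NELF complex, had 129 and 109 against 77.8 and 74.2 and a difference of -0.63 (adjusted p 0.000724) that reversed to 0.83 after rescaling. The NELFCD call also ended when either 250 nM library or the first DMSO library was left out (adjusted p 0.00166 to 0.00573). MLLT1, the gene for the elongation complex protein ENL, went from 27.6 and 24.7 to 4.71 and 4.94 FPKM. Of 18 such factors 17 were called lower, ELL3 at 2.21 and 1.28 FPKM in DMSO being the one not called, and the median retained level was 36.4%, next to the 36.3% of all genes. By role, 6 pausing factors retained 43.0% in the median and 8 elongation factors 32.5%. After rescaling 5 were lower and 1 higher.

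In the MYC network 81.8% of active members were called lower, against 68.6% of all active genes. The network's median DMSO level was 15.9 FPKM. Among all active genes of 5 to 20 FPKM in DMSO 78.6% were called lower, close to the network's share. MYC had 82.5 and 73.9 FPKM in the DMSO libraries, 51.2 and 49.2 at 50 nM and 3.11 and 3.30 at 250 nM, with no overlap at any step, and its relative loss was the largest of its network, at -2.998 after rescaling. MLX, a partner in the related glucose-sensing branch, fell from 37.3 and 34.3 FPKM to 4.28 and 3.76 (-2.88), and MAX, the obligate partner of MYC, from 24.8 and 22.7 to 5.11 and 4.84. MGA, which competes for MAX at the same E-boxes, went from 13.01 and 9.26 to 1.12 and 1.36 FPKM and MXD3, an antagonist, from 17.8 and 16.8 to 2.44 and 2.99. MXI1, another antagonist, was not called, at 7.59 and 6.63 FPKM in DMSO against 3.86 and 3.84, and its groups did not overlap. In all 9 of 11 members were called lower with a median retained level of 19.9% (14.1 to 21.3), and after rescaling 6 were lower and none of the 11 higher. PVT1, the long non-coding RNA next to MYC, was not called, with 22.2 and 17.7 FPKM in DMSO and 12.04 and 15.6 at 250 nM, and was called higher at 0.91 after rescaling.

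Members of the BCL2 family ranged widely within each role. MCL1 had 142 and 124 FPKM in DMSO and 10.1 and 17.9 at 250 nM, libraries that stood well apart from DMSO and from each other, and BCL2L1, the gene for BCL-XL, went from 214 and 199.8 to 26.8 and 30.7 (-2.81). BCL2L2, the gene for BCL-W, was better retained, from 31.3 and 27.3 to 9.65 and 10.1 FPKM, and BCL2 itself was scarce at 1.52 and 1.04 in DMSO. Among the effectors that permeabilize mitochondria, BAK1 fell from 42.8 and 37.9 FPKM to 5.81 and 6.02 and BAX from 69.4 and 61.8 to 28.1 and 24.8, though BAX was 0.16 after rescaling, not called. BH3-only genes ranged widely: BBC3, the gene for PUMA, fell from 6.30 and 6.49 FPKM to 0.183 and 0.411, while BID, which links death receptors to mitochondria, had 29.5 and 26.8 against 20.7 and 19.7 and was not called (-0.46, adjusted p 0.0031), becoming 0.97 and called higher after rescaling. PMAIP1, the gene for NOXA, which binds MCL1, was not called at 12.2 and 11.6 FPKM in DMSO and 5.86 and 5.22 at 250 nM. Median retained levels were 24.3% for 5 pro-survival genes, 14.7% for 3 effectors and 44.6% for 7 BH3-only genes. Counts for the family were 9 of 15 lower, a median retained level of 33.7% (25.9 to 37.0), and after rescaling 6 lower and 1 higher.

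Feedback inhibitors of signalling pathways were among the lists with the lowest retained levels. In the BMP and TGF-beta list the helix-loop-helix repressor ID1 went from 475 and 501 FPKM in DMSO to 52.1 and 50.5 at 250 nM, and its relative ID3 from 250.3 and 250.5 to 17.8 and 17.9. TGIF1, a co-repressor of SMAD proteins, fell from 27.2 and 23.3 FPKM to 0.719 and 1.07 (-3.797, adjusted p 8.04e-06), and SMAD6, an inhibitory SMAD, from 14.2 and 14.5 to 0.923 and 0.885. ID2 departed from its relatives, with 18.8 and 15.9 FPKM in DMSO, 46.4 and 42.3 at 50 nM and 11.8 and 11.01 at 250 nM. At 50 nM both ID2 libraries were above the other groups, the difference between doses was -1.87 (adjusted p 6.8e-05), and the 250 nM difference from DMSO was not called (adjusted p 0.00271) unless the replicate block was used (lower, adjusted p 0.000689), but was 0.84 and higher after rescaling. This list retained 7.12% in the median (7.09 to 7.14), with 8 of 9 lower, and after rescaling 7 lower and 1 higher.

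ERK feedback genes were close behind. SPRY2, a Sprouty inhibitor of receptor signalling, had 57.9 and 53.1 FPKM in DMSO, 37.6 and 37.0 at 50 nM and 1.45 and 2.39 at 250 nM, so most of its loss lay between the doses (-4.29 from DMSO, adjusted p 7.68e-06). SPRY1 fell from 22.8 and 18.5 FPKM to 0.194 and 0.335, and the ERK phosphatase DUSP6 from 30.3 and 26.0 to 0.893 and 1.29. SPRY4 had 34.0 and 29.5 FPKM in DMSO and 10.5 and 16.8 at 250 nM, with the treated libraries far from each other, and was not called (adjusted p 0.00164, and 0.21 after rescaling), though it was called lower without the second 250 nM library (adjusted p 0.000304). The ETS factors ETV4 and ETV5, which ERK signalling induces, retained 26.5% and 24.7%. Of 10 ERK feedback genes 9 were called lower with a median retained level of 8.70% (7.28 to 10.6), and 8 were lower and 0 higher after rescaling.

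Immediate early genes split into a group that was lost and a group that was not. BTG2, an anti-proliferative gene, had 39.9 and 33.3 FPKM in DMSO and 0.694 and 0.934 at 250 nM (-4.37, SE 0.144, adjusted p 6.93e-06). DUSP1, a phosphatase of stress kinases, fell from 25.4 and 24.01 FPKM to 0.659 and 0.655, ZFP36L2, a protein that destabilizes AU-rich transcripts, from 53.4 and 51.9 to 2.01 and 1.88, and JUN from 38.6 and 36.4 to 2.13 and 2.87. EGR1, a zinc finger factor induced by serum, went from 23.2 and 20.7 to 2.03 and 3.02. IER3, a stress-induced survival gene, was level instead, with 114 and 112 FPKM in DMSO and 106 and 119 at 250 nM, groups that overlapped. MAFF, a small MAF factor, also overlapped, at 6.11 and 4.70 FPKM in DMSO and 5.21 and 7.13 at 250 nM. Neither was called on the spike-in scale, and both were called higher after rescaling, at 1.46 and 1.495. FOS, FOSB, JUNB, ATF3 and IER2 were not called on either scale. The list stood at 11 of 18 lower and a median retained level of 13.5% (11.9 to 15.6), with 10 lower and 2 higher after rescaling.

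NF-kB targets varied too. The 4 feedback genes fell, led by NFKBIA, the inhibitor that retains NF-kB in the cytoplasm, from 149 and 129 FPKM to 8.001 and 8.61 (-3.91, SE 0.0879, adjusted p 5.08e-06), and their median retained level was 11.5%. Of 8 cytokine and adhesion genes 3 were called lower. TNF had 10.6 and 8.72 FPKM in DMSO and 10.7 and 13.8 at 250 nM, the treated libraries being the higher ones, and its 0.31 was not called (adjusted p 0.117) but was 1.71 and higher after rescaling. IL8, the chemokine CXCL8, had 75.8 and 62.2 FPKM in DMSO, 31.3 and 28.4 at 50 nM and 74.8 and 72.8 at 250 nM. Its DMSO and high-dose libraries overlapped while the low-dose libraries were the lowest, giving -1.18 at 50 nM against DMSO (adjusted p 0.000582) and 1.28 between the doses (adjusted p 0.000176). CXCL3, another chemokine, was not called at 2.46 and 2.49 FPKM in DMSO and 3.12 and 2.95 at 250 nM, and after rescaling it joined TNF and IL8 as the 3 of 15 list members called higher. CCL20, a chemokine for CCR6, fell from 69.3 and 70.1 FPKM to 39.8 and 38.9 but was 0.64 after rescaling, not called, and ICAM1, an adhesion receptor, from 42.3 and 36.4 to 12.7 and 14.3. The whole list had 10 of 15 lower and a median retained level of 34.5%, and 3 lower after rescaling.

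Of the stress response lists, p53 targets were called lower in 93.8% and ATF4 genes in 100%, against 68.6% of all active genes. Their median DMSO levels were 13.25 and 19.7 FPKM, and 78.6% of active genes of 5 to 20 FPKM in DMSO were called lower. Among p53 targets 15 of 16 were called lower, with a median retained level of 18.3% (16.2 to 21.8), and 6 lower and 0 higher after rescaling. PHLDA3, an inhibitor of AKT, had 28.2 and 31.2 FPKM in DMSO and 1.03 and 1.23 at 250 nM (-3.85, adjusted p 6.86e-06), and MDM2, the ubiquitin ligase of p53, 15.2 and 13.4 against 2.11 and 2.48. TNFRSF10B, the death receptor DR5, was the best retained of the list members with a mean of at least 5 FPKM, at 20.04 and 16.9 FPKM in DMSO and 8.82 and 8.64 at 250 nM. Its -0.997 (adjusted p 0.000202) turned to 0.38 after rescaling, not called, and its call on the spike-in scale ended without either 250 nM library (adjusted p 0.00212 to 0.00229). In the ATF4 list all 15 genes were called lower and 21.5% was retained in the median (20.1 to 23.0), with 9 lower and 1 higher after rescaling. CEBPB, a leucine zipper factor encoded by a single exon, fell from 39.5 and 36.7 FPKM to 0.892 and 1.10 (-4.29, adjusted p 6.52e-06), DDIT3, the gene for CHOP, from 19.02 and 15.98 to 0.575 and 0.851, and ATF4 from 282 and 259.8 to 60.3 and 66.4. PSAT1, an enzyme of serine synthesis, went from 199.7 and 177 FPKM to 122 and 113, a log2 difference of -0.68 that reversed to 0.78 after rescaling and whose call ended when any 1 of the 4 libraries was left out (adjusted p 0.00121 to 0.00432).

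Heat shock genes ranged from near loss to near full retention. DNAJB1, a co-chaperone of HSP70, had 72.9 and 64.2 FPKM in DMSO, 22.3 and 21.8 at 50 nM and 1.495 and 1.47 at 250 nM (-4.81, SE 0.0958, adjusted p 4.94e-06), stepping down at each dose. HSPA8, the constitutive HSP70, fell from 1967 and 1743 FPKM to 473 and 444, BAG3, its nucleotide exchange factor, from 37.0 and 33.9 to 6.17 and 7.25, and HSF1, the regulator of the heat shock response, from 105 and 104 to 32.2 and 32.5. HSP90AA1, the inducible HSP90, was not called, with 835 and 724 FPKM in DMSO and 717 and 643 at 250 nM, and was 1.28 and higher after rescaling. Of 17 genes 12 were called lower with a median retained level of 46.1% (41.4 to 51.3), and after rescaling 4 were lower and 7 higher.

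DNA repair genes were examined because of the known part of CDK12 in their expression. BRCA1, at chr17:41196312-41322262 on the minus strand, had 16.9 and 14.3 FPKM in DMSO, 4.12 and 3.56 at 50 nM and 3.62 and 3.66 at 250 nM. Both doses lay far below DMSO and close to each other, with a difference of -1.84 from DMSO (SE 0.136, adjusted p 4.26e-05) and -0.06 between the doses (adjusted p 0.72). BRCA2, at chr13:32889223-32974405 on the plus strand, had 3.69 and 2.94 FPKM in DMSO, 1.496 and 1.25 at 50 nM and 0.560 and 0.811 at 250 nM (-1.36, SE 0.136, adjusted p 0.000142). The BRCA2 call ended without the first 250 nM library (adjusted p 0.00139), and after rescaling both genes were at -0.58 and neither was called. PALB2, which joins BRCA1 to BRCA2, had the largest loss of the list members with a mean of at least 5 FPKM, from 10.9 and 8.71 FPKM to 0.448 and 0.628 (-2.81, adjusted p 1.87e-05), and was still called lower at -2.12 after rescaling. BLM, a helicase, fell from 11.1 and 9.66 FPKM to 0.895 and 0.907. FANCD2, whose ubiquitination marks crosslinked DNA, was not called at 18.6 and 15.3 FPKM in DMSO and 10.7 and 11.6 at 250 nM (adjusted p 0.00731), and was 0.83 and higher after rescaling. Over the 32 homologous recombination and Fanconi genes, 25 were called lower, 30.3% was retained in the median (24.8 to 36.7), and after rescaling 7 were lower and 3 higher with a median of -0.22.

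Mitotic genes retained less in the median than genes of DNA replication, with members that overlapped and no test of the difference. AURKA, the centrosomal kinase, had 103 and 89.3 FPKM in DMSO, 42.4 and 40.0 at 50 nM and 3.796 and 3.58 at 250 nM, a step down at each dose and a total difference of -4.37 (SE 0.0935, adjusted p 5.08e-06). PLK1, a kinase of mitotic entry, fell from 86.1 and 84.7 FPKM to 5.09 and 4.75, CENPA, the centromeric histone, from 22.2 and 23.5 to 1.74 and 1.35, and CCNB1, the gene for cyclin B1, from 108 and 93.8 to 17.3 and 16.3. PTTG1, the gene for securin, was the least reduced mitotic gene, at 363 and 301 FPKM in DMSO and 201 and 184 at 250 nM (-0.78, adjusted p 0.00065), and it was 0.69 and called higher after rescaling. On the spike-in scale its call ended when either 250 nM library or the first DMSO library was left out (adjusted p 0.00246 to 0.00457). All 23 mitotic genes were called lower, with a median retained level of 22.1% (20.9 to 25.3), and after rescaling 12 were lower and 1 higher. In the replication list the origin licensing factor CDT1 fell from 27.1 and 25.6 FPKM to 2.52 and 2.45 (-2.97, adjusted p 9.95e-06) and the licensing helicase subunit MCM2 from 91.8 and 86.4 to 51.4 and 51.8, although MCM2 was 0.68 and called higher after rescaling, while CDC45, a part of the active helicase, was not called at 31.7 and 29.0 against 23.3 and 22.9 (adjusted p 0.00564). CDC45 was called higher after rescaling. Of 29 replication genes 25 were called lower and the median retained level was 50.3% (45.5 to 50.9), and after rescaling 6 were lower and 9 higher with a median of 0.47.

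Receptor tyrosine kinases and lipid genes lay near the typical gene. EPHB4, a receptor for ephrin-B2, fell from 28.0 and 26.2 FPKM to 2.10 and 2.34 (-3.13, adjusted p 7.03e-06), MET, the receptor for HGF, from 36.0 and 30.2 to 8.09 and 8.01, and ERBB2 from 43.98 and 42.5 to 13.04 and 12.6, while FGFR4 was not called at 8.99 and 9.12 against 4.51 and 5.51. Of 15 active receptors 12 were called lower and 32.0% was retained in the median, with 2 lower and 0 higher after rescaling. All 17 cholesterol genes were called lower, with a median retained level of 38.6% (36.4 to 40.4). SREBF2, a transcription factor on this list, went from 55.4 and 52.1 to 32.9 and 30.1 FPKM, a difference of -0.75 that reversed to 0.69 after rescaling and whose call ended without the second 250 nM library (adjusted p 0.00132). After rescaling 5 of the 17 were lower and 2 higher.

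Ribosomal protein genes had the highest median retention of the 31 lists drawn. Of 79 listed 78 were active, 9 of them were called lower, and the median retained level was 78.2% (71.7 to 86.4). In 72 of the 78 both 250 nM libraries were below both DMSO libraries, beside 95.85% of all active genes. After rescaling 59 of the 78 were called higher and 0 lower with a median of 1.11. RPS27, a protein of the small subunit, had 6129 and 5240 FPKM in DMSO and 5750 and 4947 at 250 nM, groups that overlapped, and RPS18 had 6311 and 5970 against 5208 and 4755, groups that did not. RPL13, of the large subunit, was the most reduced member, from 202 and 195 FPKM to 123 and 112 (-0.75, adjusted p 8.52e-05), although after rescaling it was at 0.71 and not called. RPL21 had 220.3 and 202 FPKM in DMSO, 237 and 468 at 50 nM and 247 and 296 at 250 nM, with the treated libraries above DMSO and, at 50 nM, far from each other, and was not called (0.36, SE 0.3004, adjusted p 0.292). Large-subunit genes retained 77.9% and small-subunit genes 78.9% in the median. Leaving out rows of small RNAs, a step chosen after the data were seen, ribosomal proteins made up 19.7% and 19.9% of all FPKM in DMSO, 22.7% and 23.0% at 50 nM and 27.8% and 26.9% at 250 nM.

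Because ribosomal protein genes moved together, 60 bases centred on the annotated start are shown, 5′ to 3′ from RefSeq on GRCh38.p14, for the 4 members most abundant in DMSO among those with 1 listed start. Capitals mark a run of at least 8 C or T on the strand of the gene, looked for only from 10 bases before the start to 12 bases from it on, a feature chosen after the data were seen. RPS18 lies at chr6:33272045-33272104 (plus strand), RPS27 at chr1:153990732-153990791 (plus), RPL37A at chr2:216498814-216498873 (plus) and RPL12 at chr9:127451377-127451436 (minus).
RPS18: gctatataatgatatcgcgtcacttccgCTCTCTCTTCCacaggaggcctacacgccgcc
RPS27: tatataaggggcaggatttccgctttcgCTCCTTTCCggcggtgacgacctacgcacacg
RPL37A: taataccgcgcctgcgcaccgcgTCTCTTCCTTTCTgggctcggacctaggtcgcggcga
RPL12: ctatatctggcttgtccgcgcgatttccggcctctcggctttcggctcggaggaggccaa
RPL37A had 5568 and 5178 FPKM in DMSO and 4735 and 4190 at 250 nM, and RPL12 had 4340 and 4043 against 3587 and 3195, so both retained over 75%, as did RPS18 and RPS27. The run was present in 51 of 78 windows of 63 ribosomal protein genes (65.4%) and absent from that stretch in RPL12. Among all 9938 windows, which cover 6791 of 8149 coding genes with a mean of at least 5 FPKM (83.3%), it was present in 10.6%. In genes with a log2 difference above -0.5 it was present in 16.3% of 583 windows, and in 10.2% once ribosomal protein genes were removed, close to the share of all windows, and in genes at or below -3 in 9.46% of 518. A match describes these letters only, and no test of it was made.

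**Figure D4:**
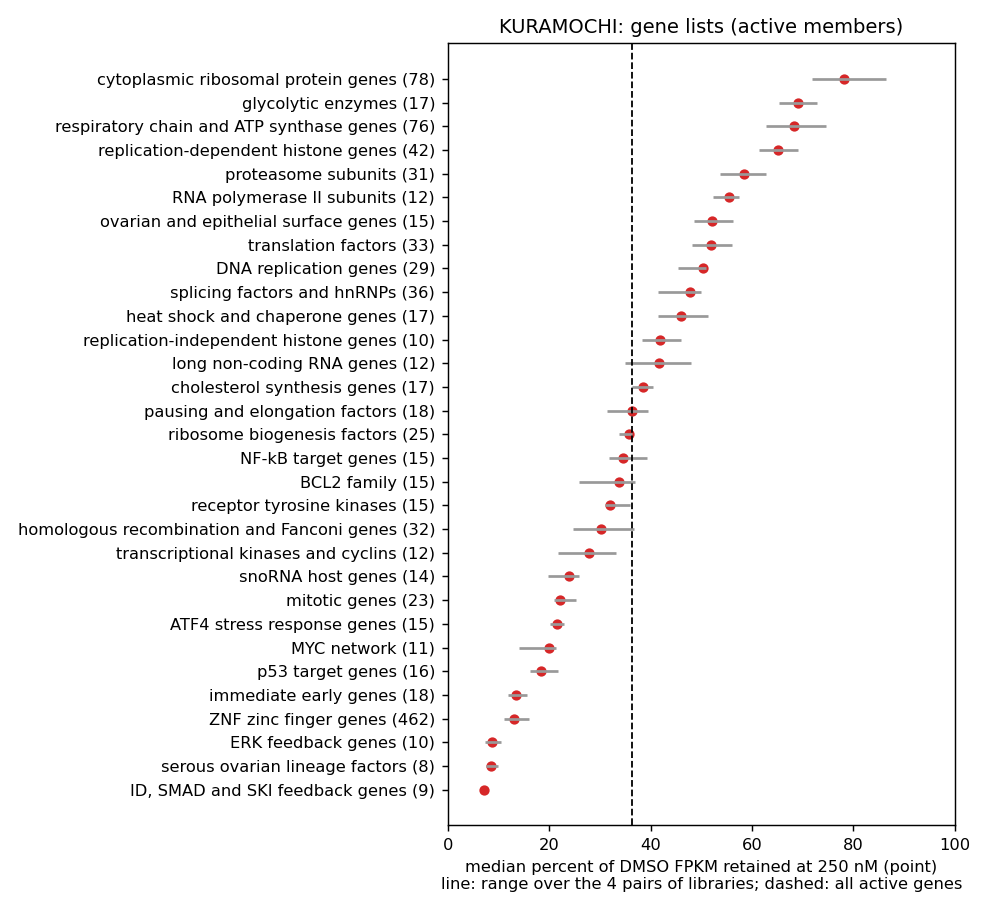
Median percentage of the DMSO level retained at 250 nM on the spike-in scale for 31 gene lists, with a line for the range over the 4 pairs of libraries and a dashed line at 36.3% for all active genes. Ribosomal protein, glycolytic and respiratory chain genes lie farthest right, and these lists were higher than the typical gene after rescaling, while the ID and SMAD feedback genes, serous lineage factors and ERK feedback genes lie farthest left.

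Other lists of the cell's core machinery lay between the ribosomal proteins and the typical gene. Respiratory chain and ATP synthase genes had 40 of 76 called lower, a median retained level of 68.2% (62.8 to 74.6), and 60 called higher and 0 lower after rescaling. Complex IV retained 78.6%, ATP synthase 76.3% and complex I 62.3% in the median. UQCRFS1, the Rieske protein of complex III, was an exception that fell from 278.6 and 257 FPKM to 82.7 and 77.5 (-1.73, adjusted p 7.96e-06, and -0.27 after rescaling). NDUFA4, a subunit tied to complex IV, had 156 and 132 FPKM in DMSO and 151 and 129 at 250 nM, which overlap. None of the 13 mitochondrially encoded genes has a row in the table, so they could not be compared. Among glycolytic enzymes 9 of 17 were called lower and 69.0% was retained in the median, while after rescaling 9 were higher and 0 lower. GAPDH, a common reference gene, was not called at 4494 and 4305 FPKM in DMSO and 3398 and 3198 at 250 nM, and HK2, an inducible hexokinase, fell from 26.9 and 24.4 to 7.77 and 8.20 (-1.57, adjusted p 2.62e-05). Proteasome subunits had 29 of 31 called lower but a median retained level of 58.3% (53.8 to 62.8), and after rescaling 16 were higher and 0 lower. PSMD7, of the regulatory lid, fell most, from 96.2 and 90.3 FPKM to 30.0 and 26.2 (-1.70, and -0.26 after rescaling).

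Translation and splicing factors differed in their medians by role, although the lowest and highest members of the roles compared overlapped. Of 33 translation factors 28 were called lower with a median retained level of 52.0% (48.2 to 56.0). The 5 elongation genes retained 67.6% and the 28 initiation genes 46.5%, and after rescaling 11 of the 33 were higher and 1 lower. EIF5, the GTPase activator of initiation, had the largest fall, from 70.4 and 61.4 FPKM to 14.03 and 14.7 (-2.12, adjusted p 1.13e-05), and EIF3H, a subunit of the scaffold eIF3, was not called at 595 and 534 against 469.7 and 406. Splicing factors and hnRNPs had 35 of 36 called lower and 47.7% retained in the median (41.5 to 50.0). SR proteins, which bind exonic enhancers, retained 29.3% and hnRNPs 52.0%. SRSF3 fell from 184 and 170.1 FPKM to 33.1 and 32.2 (-2.40, adjusted p 7.58e-06), whereas SNRNP200, the spliceosomal helicase, went from 122 and 108 to 76.2 and 73.1, a difference of -0.61 that turned to 0.85 after rescaling and whose call ended without either 250 nM library or the first DMSO library (adjusted p 0.00139 to 0.00362). After rescaling 4 of the 36 were lower and 10 higher. Without the second 250 nM library the list's median lay -0.04 from that of all genes, against 0.06 with it.

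Ribosome biogenesis factors did not follow the ribosomal proteins. RRS1, needed for assembly of the large subunit and encoded by 1 exon, had 95.5 and 90.7 FPKM in DMSO, 32.0 and 31.3 at 50 nM and 2.81 and 2.93 at 250 nM (-4.60, SE 0.0743, adjusted p 4.79e-06). NOP16, a nucleolar protein, fell from 124 and 124 FPKM to 9.45 and 9.06, and POLR1B, the second subunit of RNA polymerase I, from 34.3 and 27.5 to 4.07 and 4.13. NPM1, the abundant nucleolar chaperone, was not called at 3098 and 2810 FPKM in DMSO and 2085 and 1820 at 250 nM (adjusted p 0.00256), and was called lower with the replicate block (adjusted p 5.47e-05). Of 25 factors 24 were called lower, 35.8% was retained in the median (33.7 to 36.3), and after rescaling 8 were lower and 3 higher.

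Histone genes were listed by class, with members that overlapped and no test of the difference. H2AFX, whose phosphorylated protein marks DNA breaks, fell from 142 and 153 FPKM to 18.6 and 18.8 (-2.92, adjusted p 5.42e-06), and H2AFY, the gene for macroH2A, from 286 and 261 to 184 and 174, a difference of -0.61 that reversed to 0.86 after rescaling. Leaving out either 250 nM library or the first DMSO library ended the H2AFY call (adjusted p 0.00151 to 0.00247). Replication-independent histone genes had 8 of 10 called lower and 1 higher, with 41.9% retained in the median, and 2 lower and 3 higher after rescaling. Replication-dependent histone transcripts mostly end without a polyA tail, and 42 of 72 were active in these polyA libraries. Of those 10 were called lower and 1 higher, the median retained level was 65.1%, and after rescaling 1 was lower and 6 were higher. Their median DMSO level was 2.95 FPKM, and 14 of the 42 had a mean of at least 5 FPKM. The 65.1% therefore rests largely on low levels, where the fall of the table's lowest values limits what can be read. HIST2H2BC fell from 9.97 and 9.96 FPKM to 2.03 and 2.07 (-1.85), while HIST1H1C, a linker histone, overlapped between groups at 36.4 and 30.8 in DMSO and 32.5 and 26.0 at 250 nM.

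Zinc finger genes named ZNF were the list with the most active members and lost more than the typical gene in the median. Of 540 listed 462 were active and 385 (83.3%) were called lower, with a median retained level of 12.98% (11.2 to 16.1). Their median DMSO level was 3.81 FPKM, and 97 of the 462 had a mean of at least 5 FPKM. The 12.98% therefore rests largely on low levels, where the fall of the table's lowest values limits what can be read. After rescaling 209 of the 462 were still called lower and 2 higher, and the median was -0.84. ZNF581 had 41.5 and 40.9 FPKM in DMSO and 0.816 and 1.27 at 250 nM (-4.38, adjusted p 6.86e-06). ZNF185, a LIM protein of the actin cytoskeleton despite its name, went from 28.5 and 24.8 FPKM to 17.1 and 16.8 and reversed from -0.62 to 0.80 after rescaling, and its call ended without either 250 nM library or the first DMSO library (adjusted p 0.00245 to 0.00775).

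Loss followed the number of exons at its low end. Over 11237 protein-coding genes with a mean of at least 1 FPKM, the 219 with 1 annotated exon retained 11.1% in the median (10.3 to 12.5 over the pairs of libraries) and the 465 with 2 exons 12.7% (11.5 to 14.2). With 3 exons the median was 23.6% (21.3 to 25.6) over 666 genes, and with 4 or 5 it was 34.1% over 1661. The 3396 genes with 6 to 10 exons retained 35.8%, the 3271 with 11 to 20 exons 36.8%, and the 1512 with at least 21 exons 39.0% (34.5 to 44.1). The rise was steep up to 4 exons and shallow after that. Limiting the count to genes with 20 to 100 FPKM in DMSO, a band chosen after the data were seen, gave 7.68% for 61 genes of 1 exon, 11.5% for 117 of 2, 30.4% for 194 of 3 and 36.5% to 39.1% for the larger numbers. Outside the gene lists described here, and within the same band, the medians were 7.50%, 13.8% and 31.1% for 1, 2 and 3 exons. Across genes, which are not independent replicates, Spearman's rho of the log2 difference with exon number was 0.159.

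**Figure D5:**
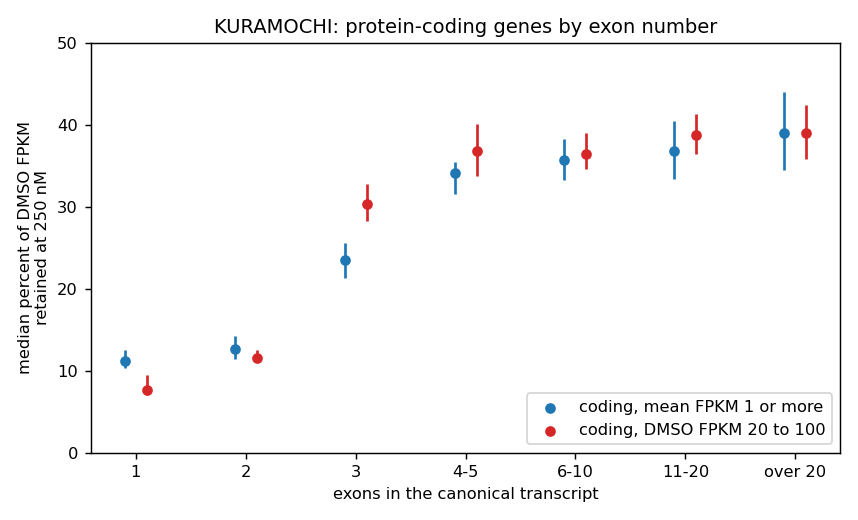
Median percentage of the DMSO level retained at 250 nM on the spike-in scale by number of annotated exons, for protein-coding genes with a mean of at least 1 FPKM in blue and for those with 20 to 100 FPKM in DMSO in red, with bars for the range over the 4 pairs of libraries. Genes of 1 and 2 exons lie lowest in both groups, and from 4 exons on the medians differ little.

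Length and level were related to loss in other ways. Mature transcripts under 1 kb retained 58.0% in the median over 660 genes, those of 1 to 2 kb 42.4%, of 2 to 3 kb 34.0%, of 3 to 5 kb 31.8% and those over 5 kb 29.7%, with a rho of -0.171 with the log2 difference across genes. The genomic span of a gene had little relation to its loss, with a rho of 0.0536 with the log2 difference and retained medians from 33.0% to 43.1% over all bins, the highest being the 180 genes under 2 kb and the next highest, at 39.2%, the 784 genes over 200 kb. Among coding genes with 20 to 100 FPKM in DMSO the order by span was another, with 33.0% for the 65 under 2 kb and the highest median, 40.9%, for the 176 over 200 kb (rho 0.103), while transcripts under 1 kb still retained most, 48.9% against 34.3% over 5 kb (rho -0.123). By DMSO level, the 1648 genes of at most 1 FPKM stood at 58.0%, which is not read as loss because the table's lowest common value itself went from 0.118 and 0.119 FPKM in DMSO to 0.0783 and 0.0822 at 250 nM. The 2911 genes of 1 to 5 FPKM retained 30.1% and genes of 5 to 20 FPKM 28.6%, with 78.6% of these last called lower. Genes of 20 to 100 FPKM retained 36.6%, those of 100 to 1000 FPKM 56.1%, and the 123 genes above 1000 FPKM 75.0%, with 26.8% of the last group called lower. Of 153 annotated long non-coding RNA genes with a mean of at least 1 FPKM 98 were called lower, with 30.0% retained in the median against 34.7% for protein-coding genes, an order that the median log2 differences of -1.19 and -1.28 did not share. Medians of the autosomes lay between 31.1% for chromosome 21 and 37.0% for chromosome 11, a narrow band beside that of exon number.

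Single-exon genes with at least 20 FPKM in DMSO numbered 72, and 35 of them retained under 10% while 2 retained over 75%. Starts are shown for 4 of them with large falls, chosen after their values were seen, as 60 bases each, 5′ to 3′ on the strand of the gene, from RefSeq on GRCh38.p14. None of the 4 holds the run of C or T within the stretch described above, so no letter is in capitals. IRF2BP1, a co-repressor, lies at chr19:45886112-45886171 (minus strand), CCDC8, a centrosomal coiled-coil protein, at chr19:46413535-46413594 (minus), IMP3, a nucleolar protein of the small subunit processome, at chr15:75640195-75640254 (minus) and FJX1, a secreted protein, at chr11:35618430-35618489 (plus).
IRF2BP1: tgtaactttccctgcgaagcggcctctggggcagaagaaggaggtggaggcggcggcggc
CCDC8: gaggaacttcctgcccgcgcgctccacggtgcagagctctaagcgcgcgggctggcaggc
IMP3: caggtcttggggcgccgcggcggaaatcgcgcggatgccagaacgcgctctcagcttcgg
FJX1: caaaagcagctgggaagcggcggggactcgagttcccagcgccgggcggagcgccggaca
IRF2BP1 had 39.2 and 39.6 FPKM in DMSO and 0.650 and 0.690 at 250 nM (-4.60, adjusted p 6.52e-06), and CCDC8 had 34.4 and 31.3 against 0.513 and 0.556. IMP3 had 49.0 and 45.7 FPKM against 1.47 and 1.33, and FJX1 35.5 and 33.3 against 1.09 and 1.23. The treated libraries of all 4 genes lay far below DMSO, with 1.63% to 3.37% retained. Promoter windows from 250 bases before the start to 50 after it were searched on both strands for 4 motifs, none of which contains another. TATAAA was in 5.71% of all 9938 windows, 7.53% of those of genes with a log2 difference at or below -3, 8.92% of those above -0.5, and 20.6% of 107 windows of single-exon genes. CCAAT was in 35.8%, 40.3%, 35.2% and 43.9% of windows in the same order, GGGCGG in 68.5%, 69.5%, 63.3% and 63.6%, and CACGTG, the core E-box, in 9.82%, 8.88%, 8.41% and 7.48%. No match or lack of one was tested against the change in expression.

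Non-coding transcripts covered the whole range. NORAD, listed as LINC00657, a cytoplasmic RNA with binding sites for PUMILIO proteins, fell from 120.5 and 109 FPKM to 12.9 and 13.3 (-3.03, adjusted p 6.52e-06), and NEAT1, the scaffold of paraspeckles, from 60.7 and 62.2 to 8.82 and 17.1. MALAT1, an abundant nuclear RNA, was not called at 17.8 and 16.1 FPKM in DMSO and 6.72 and 8.71 at 250 nM. Of 14 listed RNAs 12 were active and 9 were called lower, with 41.7% retained in the median (34.9 to 48.0), and 3 lower and 2 higher after rescaling. Among host genes of small nucleolar RNAs, SNHG12 fell from 78.0 and 69.9 FPKM to 3.01 and 4.64 (-3.98, adjusted p 1.44e-05) while SNHG5 was not called at 643 and 541 against 516 and 454 and was 1.19 and higher after rescaling. Of 14 host genes 12 were called lower with 23.8% retained in the median, and after rescaling 4 were lower and 2 higher.

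Rows of small nucleolar RNAs hold 8 of the 10 largest falls among called genes with a DMSO mean of at least 5 FPKM, and SOX17 is another of the 10. The snoRNA rows were listed near the lowest values of the table at 250 nM, so no fold is given for them. In DMSO SNORD47 had 3085 and 8180 FPKM, SNORD45A, inside RABGGTB, 1363 and 1183, and SNORD12, inside ZFAS1, 312 and 268. Next came SNORD46 at 148 and 126 FPKM, SNORA24 at 99.5 and 63.5, SNORA18 at 47.7 and 123, SNORD23 at 66.2 and 56.3 and SNORA33 at 115 and 19.7. SNORA33 alone of these 8 was above the lowest values at 50 nM, with 39.0 and 15.7 FPKM, and its call ended without either 250 nM library or the first DMSO library (adjusted p 0.00103 to 0.0044). Replicates of SNORD47, SNORA18 and SNORA33 differed widely, and these polyA libraries are not made to capture such short RNAs. Of 385 listed snoRNA rows 149 were active and 14 were called lower, 12 after rescaling. SNORD12C ran the other way in 1 library only, at 693 and 0.0823 FPKM in the 250 nM libraries against 0.134 and 0.132 in DMSO, and was not called unless the second of them was left out (adjusted p 7.29e-05). Without small RNA rows, an alternative chosen after the data were seen, 10722 genes were called lower and 8 higher.

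Of the 7 genes called higher, 6 stood near the lowest values in DMSO, so their levels are given without a fold. MIR663A had 0.172 and 0.158 FPKM in DMSO, 2873 and 4526 at 50 nM and 2607 and 2798 at 250 nM (adjusted p 4.94e-06), so it was high at both doses. MIR612 had 0.151 and 0.144 in DMSO, 0.122 and 0.115 at 50 nM and 51.4 and 161 at 250 nM (adjusted p 4.88e-05), and MIR941-2, inside DNAJC5 at chr20:62550834-62550950 of hg19, had 0.148 and 0.141 in DMSO, 0.121 and 0.113 at 50 nM and 9.55 and 10.2 at 250 nM (adjusted p 6.52e-06), so both appeared at the high dose only. Such rows count reads at the hairpin locus in polyA RNA, not the mature microRNA, whose sequences are shown to identify the hairpins that changed. They come from RefSeq on GRCh38.p14, with the seed (bases 2 to 8) in capitals, hsa-miR-663a at chr20:26208243-26208264 (minus strand) and hsa-miR-941 at chr20:63919551-63919573 (plus).
hsa-miR-663a: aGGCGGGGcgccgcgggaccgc
hsa-miR-941: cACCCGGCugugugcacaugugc
The seeds of the pair differ. Without the first 250 nM library 23 genes were called higher and without the second 13, so this count depends on which libraries are used. At an unadjusted p under 0.05, 26 genes were higher. Of 107 active microRNA rows, which include host genes such as MIR17HG, 3 were called lower and 3 higher, and after rescaling 1 lower and 3 higher.

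The other 4 genes called higher encode proteins. HIST1H4C, a histone H4 gene at chr6:26104161-26104565, was the only one of the 7 with DMSO values clearly above the lowest, at 0.702 and 0.592 FPKM, with 1.98 and 2.27 at 50 nM and 3.52 and 3.32 at 250 nM. The groups stepped up with dose without overlap, and the rise was 1.42 (SE 0.106, adjusted p 4.26e-05). H3F3A, the gene for histone H3.3 now named H3-3A, had 0.164 and 0.155 FPKM in DMSO, 0.135 and 0.123 at 50 nM and 6.47 and 10.3 at 250 nM (adjusted p 2.6e-05), while H3F3B, which encodes the same protein, fell from 172 and 155 to 75.1 and 67.2 and was 0.27 after rescaling, not called. PPAN-P2RY11, the readthrough transcript that joins PPAN to P2RY11, had 0.153 and 0.148 FPKM in DMSO and 0.932 and 1.47 at 250 nM (adjusted p 0.000341), while PPAN, a ribosome biogenesis factor, fell from 40.1 and 37.7 to 1.46 and 1.79. SLC26A5, the gene for prestin, which overlaps PSMC2 on the other strand, had 0.145 and 0.201 FPKM in DMSO, 1.10 and 0.876 at 50 nM and 0.712 and 0.999 at 250 nM (adjusted p 0.000896), with the treated libraries of both doses above DMSO. Leaving out any 1 of the 4 libraries ended the SLC26A5 call (adjusted p 0.00112 to 0.0072), as did a term for replicate number, and leaving out either DMSO library ended that of PPAN-P2RY11 (adjusted p 0.0027 to 0.00301). How reads were divided between overlapping or near-identical loci was not tested.

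The most abundant rows held a large part of all FPKM. The rows of MIR1244-2 and MIR1244-3, copies of 1 hairpin, together made up 32.1% and 38.7% of all FPKM in DMSO and 31.2% and 29.6% at 250 nM. Like the microRNA rows above, they count reads at a hairpin locus in polyA RNA, not a mature microRNA. MIR1244-3 had 198700 and 238400 FPKM in DMSO and 103700 and 90330 at 250 nM and was not called (adjusted p 0.0354). MIR1282, a hairpin near SERF2, was listed near the lowest values at 250 nM after 150.2 and 60.6 FPKM in DMSO, and it was not called either. Among protein-coding genes S100A4, a calcium-binding protein, led in DMSO with 8605 and 7727 FPKM and had 7224 and 6313 at 250 nM. Leaving small RNA rows aside, the sum of FPKM was 788152 and 719146 in DMSO, 661213 and 626913 at 50 nM and 446994 and 418179 at 250 nM. The 100 genes most abundant in DMSO made up 32.2% and 32.8% of it in DMSO, 36.5% and 37.0% at 50 nM and 43.0% and 41.6% at 250 nM, so the share of the most abundant genes grew with dose.

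The direct contrast of 250 nM with 50 nM shows what the higher dose added. It called 5132 genes lower, 36% of active genes, and 6 higher, 0.0421%. Without the first 250 nM library it called 791 lower and 20 higher and without the second 1022 and 11, and after rescaling 1512 and 320 with both. Both doses share the DMSO libraries in their comparisons with DMSO, where 1607 genes were called lower at 50 nM and 8174 of those called lower at 250 nM were not. The 6 higher at 250 nM than at 50 nM were IL8, MIR612, MIR941-2, H3F3A and PPAN-P2RY11, described above, and MIR3916, at 209 and 368 FPKM in DMSO, 0.112 and 0.104 at 50 nM and 82.9 and 173 at 250 nM, a row that is near the lowest values at the low dose only.

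A small group of 12 genes was called higher at 50 nM than in DMSO, POLR2A and ID2 among them. The comparison of the doses shares the 50 nM libraries with that call, which by itself favours a fall, so the values between doses below describe these genes and no count of falls is given. NXF1, the export receptor for messenger RNA, had 55.3 and 49.2 FPKM in DMSO, 111 and 104 at 50 nM and 50.8 and 49.5 at 250 nM. Its low-dose libraries stood well above the others, with 1.03 at 50 nM (adjusted p 0.000371) and -1.09 between doses (adjusted p 0.000109), and its 250 nM level did not differ from DMSO by the test, though it was 1.40 and higher after rescaling. SUV420H1, a methyltransferase of histone H4, had 35.8 and 32.0 FPKM in DMSO, 59.2 and 55.4 at 50 nM and 19.5 and 19.3 at 250 nM, and PCDH7, a protocadherin, had 48.5 and 44.3 in DMSO, 74.1 and 73.5 at 50 nM and 18.9 and 19.4 at 250 nM. In both the low dose was the highest group and the high dose the lowest, without overlap, on the spike-in scale, while after rescaling SUV420H1 at 250 nM turned to 0.66 against DMSO, called higher, and PCDH7 to 0.19, not called. The other 7 were MIR663A and MGC12916, MIRLET7DHG, NNAT, SNORA34, SNORA60 and SNORD15A, the last 6 named after their values were seen, as were NXF1, SUV420H1, PCDH7 and MIR3916.

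COV362 was measured in a separate table with its own normalization, so its values stand beside those of KURAMOCHI with no test of the difference. At 250 nM all active genes retained 33.0% in COV362 in the median, against 36.3% in KURAMOCHI. The ribosomal protein genes retained 58.2% against 78.2%, serous lineage factors 12.96% against 8.62%, ID and SMAD feedback genes 22.9% against 7.12%, immediate early genes 45.6% against 13.5%, DNA replication genes 30.7% against 50.3% and NF-kB targets 21.8% against 34.5%, so lists lay on either side. By exon number the COV362 medians were 21.5% for 1 exon, 18.0% for 2, 27.4% for 3 and 31.7% to 33.4% for more, so the lowest retention was again in genes of 1 or 2 exons. HIST1H4C had a mean of 0.666 FPKM in DMSO and 4.01 at 250 nM in COV362, above DMSO as in KURAMOCHI.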

How the data were processed

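The authors used HISAT (hg19), Cufflinks and Cuffnorm to obtain FPKM and scaled these to the ERCC spike-ins. The deposited FPKM were used as they stood. They are not counts, so depth is unknown and no counting interval is given. Groups follow the labels for cell line and dose. The 6 KURAMOCHI libraries were fitted together on log2(FPKM + 1) with limma 3.58.1 (lmFit, eBayes with trend) in R 4.3.3, with 3 residual degrees of freedom, two-sided. Benjamini-Hochberg adjustment ran over active genes, and calls needed an adjusted p under 0.001 and a log2 difference beyond 0.5. Files were read with the R package data.table (version 1.17.8), pandas 2.3.3 and numpy 2.4.6 in Python 3.11.15, and plots drawn with matplotlib 3.10.9.

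Members and gene lists were chosen with earlier results of these data known, and the 37 lists were written from general knowledge. Genes were named by a rule: 9 fixed genes; the 10 lowest log2 differences among called genes with a DMSO mean of at least 5 FPKM; every gene called higher; in each list, the lowest and the highest member with a mean of at least 5 FPKM; and the 5 most abundant rows in DMSO and at 250 nM, RNA rows of ribosomal and small nuclear kinds left out. Other genes were named from the lists after their values were seen. A few genes that the rule or the lists include are not reported here. Positions, exons and gene types come from GENCODE v44 lifted to GRCh37, which 20235 symbols matched directly, 1509 through a synonym, 296 not uniquely and 1581 not at all (95.4% of active genes annotated). COV362 entered no fit, and ERCC rows were left out of the gene tests. Alternatives were another pseudocount, other minimum levels, median-of-ratios scaling, a fit on the compared libraries only, eBayes without trend, a replicate block, other thresholds, each library left out in turn and, chosen after the data were seen, removal of small RNA rows.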

Additional observations from a re-analysis of the deposited data

Results flagged for a closer look

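For a pair of genes every 250 nM library moved away from DMSO in opposite directions in the 2 cell lines. H3F3A in KURAMOCHI had 0.164 and 0.155 FPKM in DMSO, near the table's lowest values, and 6.47 and 10.3 at 250 nM, a difference of 2.99 on log2(FPKM + 1) whose size depends on the added 1, while in COV362 its mean went from 8.43 FPKM in DMSO to 0.0985 at 250 nM. RPL21 differed by 0.36 in KURAMOCHI, without a call, with both 250 nM libraries above DMSO, while in COV362 its mean went from 238.5 FPKM to 155.7, a log2 difference of -0.69. SNORA27 and SNORD102 lie within RPL21, and whether their reads entered its row was not tested. The difference between the lines was not tested for either gene, since the lines were normalized separately.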

How the results depend on the processing

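Depth could not be assessed from FPKM, and 2 libraries per group limit precision. Across all alternatives, the log2 differences of named genes were counted as unchanged in 1224 comparisons, as gaining a call in 49, as losing one in 71 and as reversed in 10. Reversal was counted only for genes called on the spike-in scale. Under rescaling the unchanged count therefore holds uncalled genes that turned from negative to positive and were called higher, such as CCNH and WFDC2. List medians relative to all genes stayed within the spread between pairs of libraries in 293 comparisons, moved in 151 and reversed in 20. The cause of each change given here was not tested, except where fewer genes or libraries, or the rescaling itself, make it by construction.

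With median-of-ratios scaling the counts at 250 nM against DMSO were 2708 lower and 1678 higher, the median became 0.0098, and 1512 were lower and 320 higher against 50 nM. Of the genes called lower 827 became called higher. Among called genes named by the rule fixed beforehand, those that reversed were POLR2A (0.54), NELFCD (0.83), TNFRSF10B (0.38), PTTG1 (0.69), RPL13 (0.71), SNRNP200 (0.85), PSAT1 (0.78), SREBF2 (0.69), H2AFY (0.86) and ZNF185 (0.80). Other rule-named genes, not called on the spike-in scale, also turned positive and were called higher. Among them were CCNH (0.81), POLR2K (0.86), ID2 (0.84), BID (0.97), FANCD2 (0.835), CDC45 (1.05), WFDC2 (1.29) and HSP90AA1 (1.28). The list medians relative to all genes counted as reversed were those of pausing factors (0.0074), cholesterol genes (0.082) and replication-independent histones (0.133). Those of heat shock genes (-0.0058 to 0.345), listed long non-coding RNAs (-0.0279 to 0.157) and NF-kB targets (0.038 to -0.0661) also changed sign. A pseudocount of 0.1 gave a median of -1.39 and reversed cholesterol genes (0.0213) and replication-independent histones (0.136).

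Requiring over 1 FPKM in at least 1 of the 4 libraries gave 11 genes higher, a median of -1.21 and snoRNA rows at -1.24. Requiring over 10 FPKM gave a median of -1.33, ovarian antigens, keratins and cadherins at -0.0994, cholesterol genes at 5e-04, replication-independent histones at 0.0224 and snoRNA rows at -1.28. With no minimum the median was -0.50, 1901 genes were lower and 3 higher against 50 nM, and lists relative to all genes were at -0.34 (polymerase II subunits), -0.47 (DNA replication), -0.30 (ovarian antigens, keratins and cadherins), -0.44 (translation), -0.0464 (respiratory chain), -0.0356 (glycolysis), -0.28 (proteasome) and -0.54 (splicing). At an adjusted p under 0.05, 19 genes were higher than in DMSO, and 8295 were lower and 19 higher than at 50 nM.

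Leaving out 1 library at a time gave 6085 to 8975 genes lower and 5 to 23 higher against DMSO, a median of -1.19 to -1.02, and 791 to 4599 lower and 5 to 20 higher against 50 nM, the lone library of a group being assumed to vary like the other groups. Relative to all genes, splicing factors ranged from -0.0379 to 0.0619 and snoRNA rows from -0.59 to 1.13, both lowest without the second 250 nM library. Replicate number as a block gave 9485 lower and 6 higher, ended the call of SLC26A5 and added lower calls for CCNH, POLR2K, ID2 and NPM1, and replicates showed no pairing across genes (r of 0.000345, -0.00771 and -0.00871 between groups).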
